A study of Rattus norvegicus with 63 samples.

Results

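Thioacetamide (TAA) was examined in the livers of 3 rats given the compound for 7 days, against the 3 rats of methylcellulose control set 1, the reference that the sample labels assign to it. The 6 animals were taken from 63 animals in 21 groups, and all 158 analytes measured in each were used. TAA was given by gavage at 19.2 mg/kg per day in carboxymethyl cellulose, and the control animals received vehicle by gavage. The study names the vehicle of these controls methylcellulose. Whether both names stand for the same vehicle was not settled, and a part of the vehicle in the differences was not tested. Every animal of the series was a male Wistar Hanover rat, 8 to 10 weeks old at assignment to dose groups of 5. Per the methods, treated animals whose livers showed histopathological change were preferred for profiling, so the values of the TAA group describe selected animals.

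The control animals of set 1 were labelled 14 days. The methods call the control groups time-matched, whereas the labels do not match these animals to the 7 days of TAA. Which of them holds was not settled, and the part of dosing time in the differences was not tested. Further groups were used for comparison. Control sets 2, 5 and 6 held 9 more animals that received methylcellulose and were also labelled 14 days. Methapyrilene (MPy) was given to 3 rats for 7 days at 60 mg/kg per day, and acetamide (AA) to 3 rats for 14 days at 3000 mg/kg per day. Both had control set 1 as their labelled reference. For MPy and AA the study gives methylcellulose as the vehicle in its compound overview and carboxymethyl cellulose in its methods. The study kept TAA out of the training of its models because its genotoxicity results were inconclusive. From its molecular profiles the study then classified TAA as a non-genotoxic carcinogen. Here the liver proteins of TAA animals are described on their own.

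Thioacetamide is a small thioamide that is a classical liver toxicant of the rat. It is not toxic as such. Cytochrome P450 enzymes and other oxygenases of the hepatocyte, CYP2E1 foremost, oxidize it at the sulfur to reactive products that bind to liver proteins and lipids. These enzymes are concentrated in the hepatocytes around the central vein, which are injured first. The same pericentral cells contain glutamine synthetase (GLUL), and their gene programme is maintained by beta-catenin signaling.

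Lysates had been measured on reverse-phase protein arrays, on which each lysate is printed as spots and a primary antibody against a single protein or modification is read by fluorescence. The values are relative fluorescence intensities (RFI) on a linear scale. RFI of different antibodies cannot be set against each other as amounts, so that only differences between animals are given. They are for the same antibody or for the same ratio of a modified form to its total protein. Of the 158 analytes, 104 were total proteins and 54 were modified forms. Analytes carry gene symbols with the modified residue (CDKN1B_P-S10 is CDKN1B phosphorylated at serine 10), and several antibodies with the same symbol are numbered (CYP3A4_2). Hepatocyte markers fixed for the tissue check were represented by 5 of 6 symbols (HNF4A, GLUL, CYP2E1, CYP1A2 and CYP3A4), whereas 0 of 5 cholangiocyte, 0 of 5 stellate cell, 0 of 3 endothelial and 0 of 4 leukocyte symbols were measured. In whole liver lysate a smaller share of a cell type and less protein per cell cannot be told apart.

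The general signal level was lower in the treated livers than in control set 1. The median RFI over the analytes was 0.492, 0.507 and 0.504 in the TAA animals and 0.575, 0.637 and 0.570 in control set 1, so these groups did not overlap. All methylcellulose control animals together ran from 0.504 to 0.882, and the highest TAA animal lay just inside that range. The log2 fold changes of all 158 analytes had a median of -0.16, and 128 analytes (81.0%) had a log2 fold change below 0. Against the same control set the median was -0.15 for MPy and -0.03 for AA. A shift of similar size was thus also found for MPy, but both rest on the same 3 control animals. Centring each animal on its own median moved the median of TAA to 0.03. Whether the shift lies in the lysates or in the livers was not tested, and centred values are given beside the analytes called. Between control set 1 and the 9 animals of sets 2, 5 and 6, limma called 0 of 158 analytes, and 0 had an unadjusted p below 0.05. Set 1 held 3 animals and the SE draws on the spread of all 21 groups, so this does not show that the sets were alike.

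In the uncentred comparison 5 analytes passed the test, all lower in TAA. They were 2 cytochrome P450 signals (CYP3A4_2 and CYP2B6_3), the hepatocyte growth factor receptor MET, the phosphorylated cell cycle inhibitor CDKN1B_P-S10, and GLUL, for which only 1 TAA animal had a value above 0 and entered the fit. They make 3.16% of the 158 analytes at a limma adjusted p below 0.05. An unadjusted p below 0.05 was found for 9 lower analytes (5.70%) and 1 higher one (0.633%), the apoptosis effector BAX. After centring, limma called 1 analyte (0.633%), BAX, which was higher, and 0 lower ones (7 or 4.43% with an unadjusted p below 0.05). Against all 12 methylcellulose controls 8 analytes were called (5.06%). These were the same 5 lower analytes, the lower CYP2C8 and MAPK3_P-T202/Y204, and the higher BAX. With control animal 4, 5 or 6 of set 1 left out, 0 calls remained in each case (9 to 10 analytes with an unadjusted p below 0.05). Without TAA animal 2, MET alone was called, and without TAA animal 3, CYP3A4_2 and GLUL were.

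**Figure D1:**
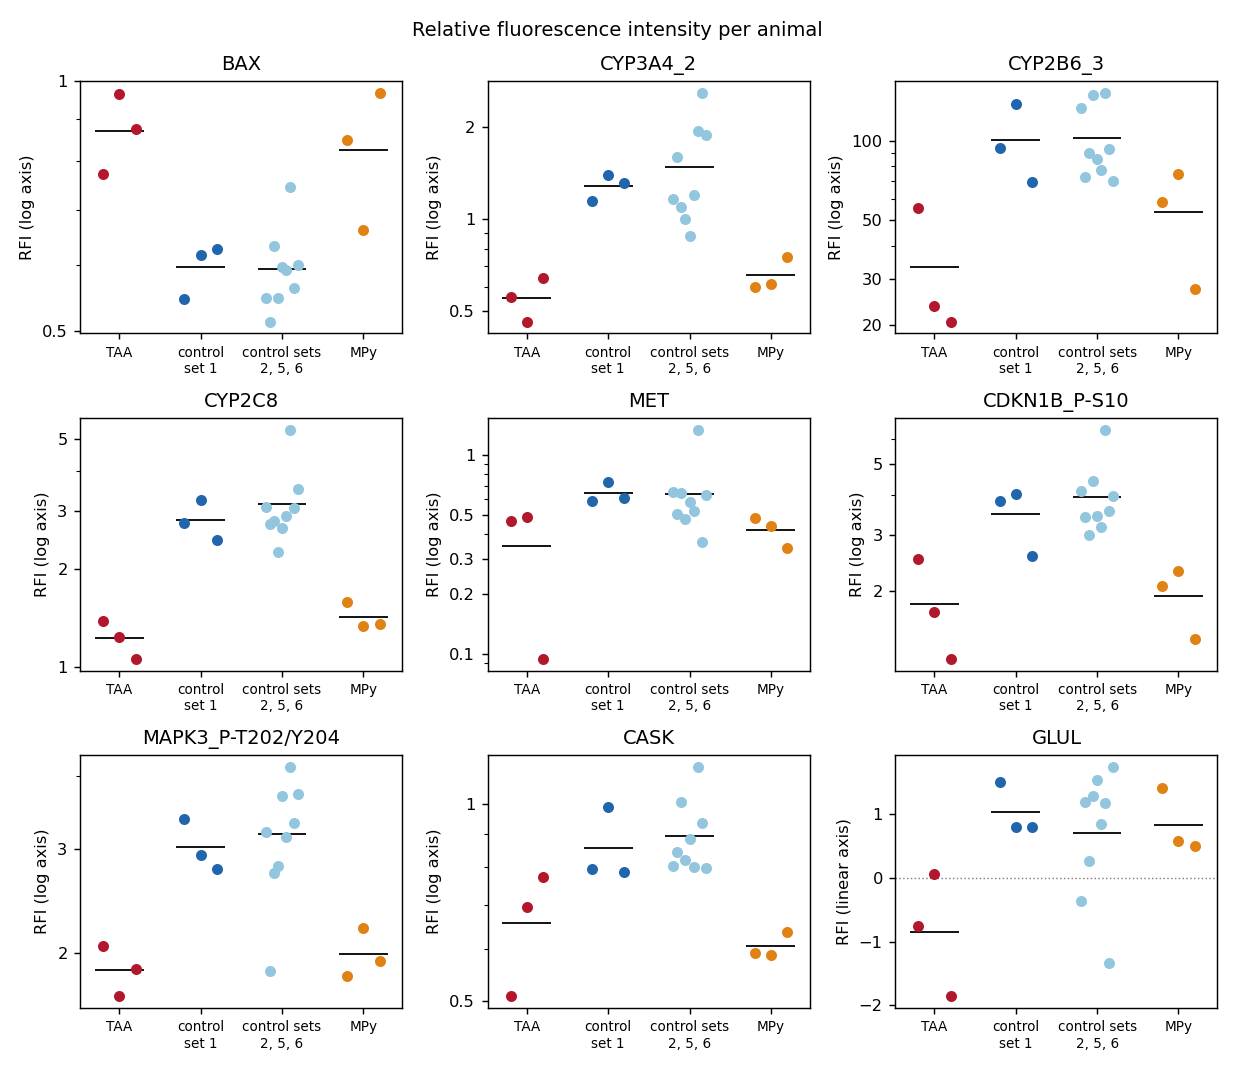
RFI of 9 analytes in each animal of TAA, control set 1, control sets 2, 5 and 6 together, and MPy, with horizontal bars at the group means; the axis is logarithmic except for GLUL, whose values reach below 0. The 3 TAA animals lie above all 12 control animals for BAX and below all 12 for CYP3A4_2, CYP2B6_3, CYP2C8, CDKN1B_P-S10 and CASK, and MET is far lower in a single TAA animal. RFI is shown without centring.

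BAX, the BCL2 family member that permeabilizes the mitochondrial membrane in apoptosis, was higher in every treated animal. Its RFI was 0.773, 0.965 and 0.875 in the TAA animals and 0.546, 0.616 and 0.627 in control set 1. All TAA animals exceeded not only set 1 but also the highest of the 12 methylcellulose controls, at 0.745. The log2 fold change was 0.54 ± 0.17 (SE), a 1.46-fold higher mean, and narrowly missed the threshold (limma adjusted p = 0.0536). Centred on the animal medians it was 0.73 ± 0.14 (limma adjusted p = 0.00060), and against all 12 controls it was 0.55 ± 0.13 (limma adjusted p = 0.0045). In the log2 ratios that the authors deposited, whose TAA columns are shifted upward by 0.03 to 0.33 against the RFI, BAX differed by 0.83 ± 0.16 (limma adjusted p = 0.00050). That row is of uncertain name: over 45 treated animals the BAX RFI had a Spearman correlation of 0.38 with it and of 0.62 with the row named RPS6_1, which differed by -0.61. BAX was called in 11 of 19 alternatives, 2 of them from these ratios, whose adjusted p ranged from 7.9e-07 to 0.417.

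The remaining apoptosis and DNA damage analytes gave smaller differences. The apoptosis list held 4 analytes and the DNA damage list 5, with BAX in both. None of these was called against set 1 without centring, and BAX was their only member with an unadjusted p below 0.05 in the uncentred comparison with set 1. MCL1, an antiapoptotic relative of BAX, had a log2 fold change of 0.15 ± 0.23, and BCL2L1, another antiapoptotic member, one of -0.18 ± 0.23. AVEN, a caspase activation inhibitor, lay at 0.112, 0.119 and 0.108 in TAA against 0.124, 0.163 and 0.147 in control set 1, with a log2 fold change of -0.35 ± 0.25. None of these 3 passed the test (limma adjusted p from 0.747 to 0.789), though MCL1 was called when centring was combined with all 12 controls (0.41 ± 0.13, limma adjusted p = 0.0302) or with the 9 of sets 2, 5 and 6 (limma adjusted p = 0.0220). The median log2 fold change was -0.01 for the apoptosis list and -0.03 for the DNA damage list, beside -0.16 over all analytes.

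The cytochrome P450 list, which covers the monooxygenases of the endoplasmic reticulum and their electron donor POR, held 14 analytes of 8 symbols. Of these 14, 2 were called lower and 0 higher, 4 were lower at an unadjusted p below 0.05, and 13 had a log2 fold change below 0. Over all 158 analytes, 5 were called lower (3.16%), 9 were lower at an unadjusted p below 0.05 (5.7%) and 128 were below 0 (81%). The median of the list was -0.28 uncentred and -0.09 centred, beside -0.16 and 0.03 over all analytes. The differences were uneven between antibodies, including antibodies with the same symbol.

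**Figure D2:**
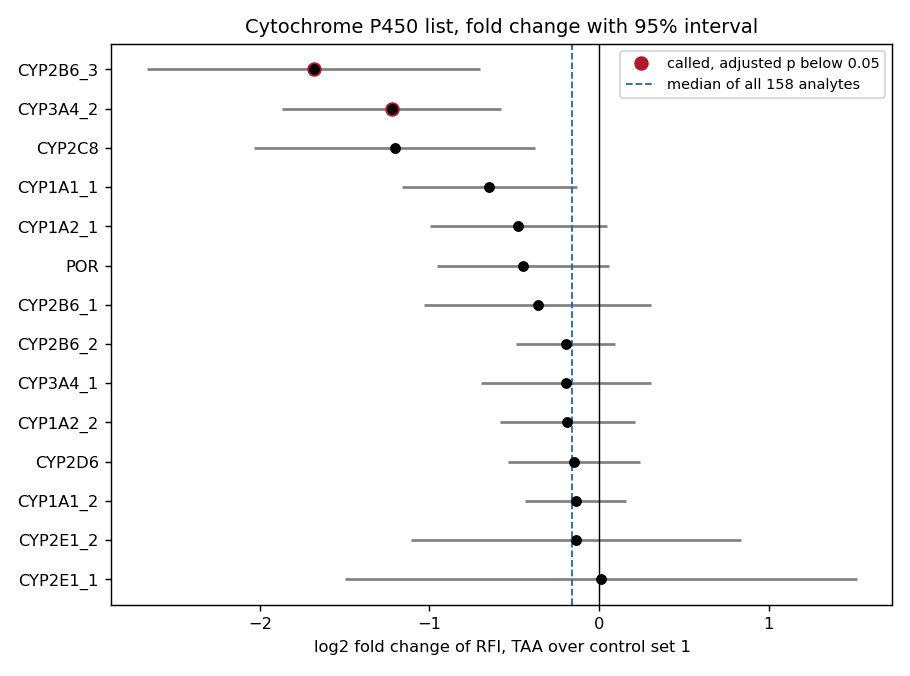
Log2 fold change of RFI, TAA over control set 1, for the 14 analytes of the cytochrome P450 list, with 95% intervals of the fit. CYP2B6_3 (-1.68), CYP3A4_2 (-1.22) and CYP2C8 (-1.20) lie well below the dashed line at the median of all 158 analytes (-0.16), and the interval of CYP2E1_1 is the widest.

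CYP3A4_2, an antibody signal for the CYP3A family that metabolizes most drugs, was 0.557, 0.460 and 0.644 in the TAA animals. In control set 1 it was 1.15, 1.39 and 1.31, and the lowest of all 12 methylcellulose controls was at 0.881. The highest TAA animal was thus below the lowest control. CYP3A4_2 fell by 1.22 ± 0.32 on the log2 scale (limma adjusted p = 0.0353), which was -1.03 ± 0.33 after centring (limma adjusted p = 0.0899) and -1.32 ± 0.25 against all 12 controls (limma adjusted p = 0.00058). The other antibody of that symbol, CYP3A4_1, did not separate the groups. It gave 5.51, 6.84 and 4.74 in TAA and 6.38, 7.20 and 5.83 in control set 1, a log2 fold change of -0.19 ± 0.25. CYP3A5, which is outside the list and was added once its value was known, had a log2 fold change of -0.25 ± 0.18.

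CYP2B6_3, a signal for the phenobarbital-inducible CYP2B family, was 55.7, 23.7 and 20.6 in TAA. Control set 1 had 94.1, 137 and 69.8, and the last of these was the lowest of the 12 methylcellulose controls. TAA animal 1 was closer to the controls than the other 2 treated animals, but the groups did not overlap. CYP2B6_3 fell by 1.68 ± 0.49 on the log2 scale (limma adjusted p = 0.0431), with -1.49 ± 0.46 after centring (limma adjusted p = 0.0708). CYP2B6_1 was also below all 12 controls, at 0.267, 0.339 and 0.323 against a lowest control of 0.362, with a log2 fold change of -0.36 ± 0.33 from set 1 that was not called. After centring CYP2B6_1 overlapped with set 1, whereas CYP2B6_3 was still below all 12 controls. CYP2B6_2 had -0.20 ± 0.15.

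CYP2C8, a signal for the CYP2C family that the study used in its protein signature, also separated every treated from every control animal. Its RFI was 1.38, 1.24 and 1.06 in TAA and 2.77, 3.26 and 2.46 in control set 1, and the 12 methylcellulose controls ran from 2.26 to 5.34. The log2 fold change of -1.20 ± 0.41 did not pass the test in the fit over all animals (limma adjusted p = 0.121), whose SE draws on the spread of all 21 groups. With the 6 animals alone the SE was 0.16 (limma adjusted p = 0.0047), and against all 12 controls the log2 fold change was -1.30 ± 0.32 (limma adjusted p = 0.0053).

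Among the signals for CYP2E1 and the CYP1 family 0 were called by limma, and 1, CYP1A1_1, had an unadjusted p below 0.05. CYP2E1, which oxidizes TAA itself, was measured by 2 antibodies with log2 fold changes of 0.01 ± 0.75 and -0.13 ± 0.48. CYP2E1_1 was 0.442, 0.501 and 0.475 in TAA, within the 0.415 to 0.579 of control set 1. Their intervals were wide, from -1.50 to 1.52 for CYP2E1_1. CYP1A1_1 was 0.511, 0.521 and 0.568 in TAA and 0.779, 0.720 and 1.04 in control set 1, with a log2 fold change of -0.65 ± 0.26 (limma adjusted p = 0.263). It overlapped with the wider set of controls, of which the lowest was at 0.454. CYP1A2_1 had a log2 fold change of -0.48 ± 0.26, CYP1A2_2 one of -0.19 ± 0.20, CYP1A1_2 one of -0.14 ± 0.15, CYP2D6 one of -0.15 ± 0.19 and POR one of -0.45 ± 0.25. UGT1A1, which conjugates bilirubin and drugs and was the only conjugation enzyme measured, had 0.04 ± 0.37.

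GLUL, the ammonia-detoxifying enzyme of the innermost pericentral hepatocytes, had a signal below 0 in 2 of the 3 treated livers and just above 0 in the other. Values below 0 do not give an amount of the enzyme. Its RFI was -0.747, 0.0615 and -1.86 in the TAA animals and 1.50, 0.792 and 0.793 in control set 1. Values at or below 0 have no logarithm, so the limma call (adjusted p = 0.0353) rests on TAA animal 2 alone and no fold change is given. Centring ended this call (limma adjusted p = 0.0671). On the linear scale the means were -0.848 ± 0.963 and 1.03 ± 0.41 (SD, n = 3 each), and the exact two-sided permutation test gave p = 0.10, the smallest that 3 against 3 animals allow. Against the 12 methylcellulose controls, of which 2 were also at or below 0, the exact permutation test gave p = 0.0132. The lowest of those controls was at -1.34, so the groups overlapped there. GLUL was at or below 0 in 10 of all 63 animals, over which it ran from -2.28 to 1.74. In the deposited log2 ratios, in which missing entries were imputed, GLUL was 0.02, -0.40 and -0.25 in TAA and 0.98, 0 and -0.01 in control set 1, a difference of -0.53 ± 0.86 with overlap that was not called (limma adjusted p = 0.976).

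The zonation and beta-catenin list held 11 analytes, and none of them other than GLUL was called (5 of all 158 analytes, or 3.16%). For GLUL only 1 TAA animal entered the fit. CTNNB1, beta-catenin itself, was 2.24, 3.23 and 2.73 in TAA and 2.35, 2.67 and 2.18 in control set 1, with a log2 fold change of 0.18 ± 0.24. CTNNB1_P-T41/S45, the form marked for degradation, was 0.386, 0.463 and 0.310 against 0.299, 0.348 and 0.278. Its log2 fold change was 0.31 ± 0.23 and was called only when centring and all 12 controls or the 9 of sets 2, 5 and 6 were combined (0.62 ± 0.17 with 12 controls, limma adjusted p = 0.0115). CTNNB1_P-S675 had a log2 fold change of -0.11 ± 0.21, APC, a scaffold of the destruction complex, one of -0.23 ± 0.26, its kinase GSK3B one of -0.15 ± 0.18, and GSK3B_P-S9, the inhibited form, one of -0.29 ± 0.21.

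**Figure D3:**
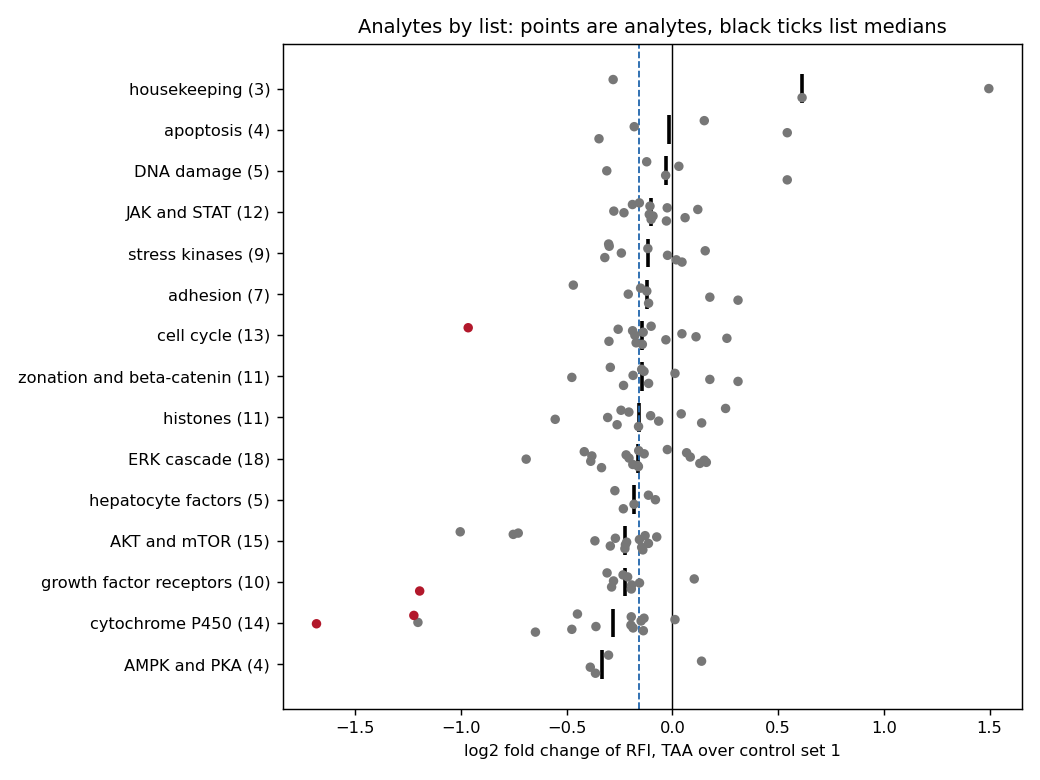
Log2 fold change of RFI, TAA over control set 1, for the members of each list with at least 3 analytes (number in brackets); red points were called, black ticks are list medians, and the dashed line is the median of all 158 analytes (-0.16). GLUL, which has no usable fold change, is not drawn, BAX stands in both the apoptosis and the DNA damage list, and the called points lie in the cytochrome P450, growth factor receptor and cell cycle lists.

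Among growth factor receptors, which transmit the signals of hepatocyte regeneration, 1 of 10 analytes was called, beside 5 of all 158 (3.16%). MET, the receptor of hepatocyte growth factor, was 0.466, 0.489 and 0.0946 in TAA and 0.583, 0.730 and 0.607 in control set 1. TAA animal 3 lay far below the other 2, which were inside the range of the 12 methylcellulose controls (0.367 to 1.34). MET fell by 1.20 ± 0.35 on the log2 scale (limma adjusted p = 0.0431), with -1.01 ± 0.30 after centring (limma adjusted p = 0.0708), but without TAA animal 3 the log2 fold change was -0.42 (limma adjusted p = 0.797). In the deposited log2 ratios MET was 0.01, -0.33 and 0.02 in TAA and 0, 0.36 and -0.01 in control set 1. The difference there was -0.22 ± 0.31, and the low value of TAA animal 3 was absent. MET_P-Y1349, the phosphorylated receptor, was 0.223, 0.234 and 0.212 against 0.239, 0.284 and 0.243, with a log2 fold change of -0.19 ± 0.16.

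The EGF receptor signals were lower by smaller amounts, none of which passed the test. EGFR was 0.140, 0.169 and 0.144 in TAA and 0.182, 0.182 and 0.187 in control set 1, with a log2 fold change of -0.29 ± 0.20. Its forms phosphorylated at Y1068, Y845 and Y1045 had log2 fold changes of -0.19 ± 0.22, -0.16 ± 0.20 and -0.28 ± 0.22. ERBB2 had 0.10 ± 0.33 and ERBB2_P-Y877 -0.21 ± 0.21. IGF1R, the receptor of insulin-like growth factor 1, had -0.23 ± 0.20, and IGFBP1, a liver-secreted binding protein of that factor, had -0.31 ± 0.33. The list median was -0.22 uncentred and -0.03 centred.

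In the ERK cascade, which relays receptor signals to the nucleus, 0 of 18 analytes were called and 1 had an unadjusted p below 0.05. MAPK3_P-T202/Y204, the active form of ERK1, was 2.05, 1.69 and 1.88 in TAA and 3.37, 2.94 and 2.77 in control set 1. Of the 9 other methylcellulose controls a single one, at 1.87, reached down to the TAA animals. The log2 fold change was -0.69 ± 0.24 (limma adjusted p = 0.122) against set 1 and -0.73 ± 0.19 (limma adjusted p = 0.0082) against all 12 controls. Total MAPK3 was 1.05, 1.39 and 1.41 in TAA and 1.09, 1.26 and 1.10 in control set 1, a log2 fold change of 0.15 ± 0.27. DUSP4, a phosphatase of the ERKs, had 0.16 ± 0.25.

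CDKN1B (p27) binds and inhibits cyclin-dependent kinases, and phosphorylation at serine 10 is a mark of its export from the nucleus. CDKN1B_P-S10 was 2.53, 1.72 and 1.23 in TAA and 3.83, 4.03 and 2.59 in control set 1, which included the lowest of the 12 methylcellulose controls. TAA animal 1 lay just under that lowest control, and the other 2 were well below it. CDKN1B_P-S10 fell by 0.97 ± 0.27 on the log2 scale (limma adjusted p = 0.0431), with -0.78 ± 0.26 after centring (limma adjusted p = 0.0983), when the groups overlapped. Total CDKN1B was 0.110, 0.105 and 0.106 against 0.0970, 0.120 and 0.130, a log2 fold change of -0.10 ± 0.19, and CDKN1B_P-T187 had -0.26 ± 0.20.

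The identity of the serine 10 signal and of total CDKN1B is uncertain. In the deposited log2 ratios CDKN1B_P-S10 differed by 0.78 ± 1.20 and CDKN1B by -0.82 ± 0.33 between TAA and control set 1, which is the opposite order. Over 45 treated animals the CDKN1B_P-S10 RFI had a Spearman correlation of 0.37 with the row of its own name and of 0.83 with the row named CDKN1B. The CDKN1B RFI had one of 0.01 with its own row and of 0.67 with the row named PAK1_P-S141. Which of the names is right was not settled here, and each value belongs to the antibody signal deposited under that name. The rest of the cell cycle list showed 0 calls among 12 analytes. The proliferation marker MKI67 was 0.243, 0.323 and 0.318 in TAA and 0.342, 0.337 and 0.320 in control set 1, a log2 fold change of -0.19 ± 0.26. CDC25A, a phosphatase that drives S phase entry, had the highest value of the list at 0.26 ± 0.39, set by TAA animal 1 at 1.94 against 0.943 and 0.623 in the other 2.

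The kinase lists showed 0 called analytes in the stress kinase, AKT and mTOR, JAK and STAT, and AMPK and PKA lists (0 with an unadjusted p below 0.05). All 15 analytes of the AKT and mTOR list had a log2 fold change below 0, beside 128 of all 158 analytes (81%). The list median was -0.22, but centring brought it to -0.03. RPS6_P-S235/S236, the phosphorylated ribosomal protein at the end of the mTOR pathway, was 5.11, 3.68 and 1.93 in TAA and 9.66, 6.69 and 4.52 in control set 1. The groups overlapped, and the log2 fold change of -1.0 ± 0.59 was not called (limma adjusted p = 0.747). PRKAA1, the catalytic subunit of AMPK, was 0.338, 0.353 and 0.369 against 0.437, 0.516 and 0.416, with a log2 fold change of -0.36 ± 0.23. Its active form PRKAA1_P-T172 had -0.39 ± 0.25. CREB1, a transcription factor activated by PKA, was 0.460, 0.423 and 0.451 against 0.399, 0.403 and 0.409, a log2 fold change of 0.14 ± 0.16.

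STAT3, a mediator of the acute phase response, had a log2 fold change of 0.12 ± 0.22. JUN, the AP-1 subunit named in the study's signature, was 0.221, 0.274 and 0.243 against 0.193, 0.247 and 0.280, a log2 fold change of 0.05 ± 0.23. MAPK14, the p38 kinase, had 0.16 ± 0.19, and MAPK8_P-T183/Y185, the active stress kinase JNK1, had -0.32 ± 0.23. NFKBIA, the inhibitor of NF-kappaB, had -0.10 ± 0.18 and its phosphorylated form -0.03 ± 0.18. SMAD2, a transducer of TGF-beta signaling, had -0.13 ± 0.23.

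Transcription factors of the hepatocyte and histones had median log2 fold changes of -0.18 and -0.16, close to that of all analytes. All 5 analytes of the hepatocyte factor list had a log2 fold change below 0, as had 128 of all 158 analytes (81%). The list ran from -0.27 ± 0.14 for RXRA, the partner of many nuclear receptors, to -0.08 ± 0.18 for PPARA_2. HNF4A, the master regulator of hepatocyte identity, was 1.60, 1.97 and 1.75 in TAA and 2.20, 2.13 and 1.90 in control set 1, a log2 fold change of -0.23 ± 0.17. Histone H3 (HIST1H3A) had -0.55 ± 0.67. HIST1H4A_A-K8, histone H4 acetylated at lysine 8, was 0.674, 0.685 and 0.571 against 0.571, 0.568 and 0.482. Its log2 fold change was 0.25 ± 0.15, and 0.44 ± 0.13 after centring (limma adjusted p = 0.0708).

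Further analytes complete those with an unadjusted p below 0.05 or the range of their list. CASK, a membrane scaffold kinase that belongs to no list, was 0.509, 0.695 and 0.773 in TAA and 0.794, 0.987 and 0.786 in control set 1. All TAA animals were below the lowest of the 12 methylcellulose controls, with a log2 fold change of -0.39 ± 0.19 (limma adjusted p = 0.663), but overlapped with set 1 after centring. The adhesion receptor CDH2 had -0.47 ± 0.29 and the stress sensor EIF2AK3 -0.15 ± 0.15. In the adhesion, NF-kappaB, TGF-beta, histone, hepatocyte factor, conjugation, chaperone and housekeeping lists 0 analytes were called by limma, and 0 had an unadjusted p below 0.05. The housekeeping proteins were not even. GAPDH was 0.341, 0.422 and 0.270 in TAA and 0.249, 0.231 and 0.189 in control set 1, without overlap and with a log2 fold change of 0.61 ± 0.47, and GLB1 had -0.28 ± 0.21. ACTB was at or below 0 in TAA animal 2 and in control animal 6, and the exact permutation test of its RFI against set 1 gave p = 0.400.

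Counted over all analytes, the 3 TAA animals lay outside the range of control set 1 for 41 of 158 (25.9%), with 38 below (24.1%) and 3 above (1.90%). The 3 above were BAX, CREB1 and GAPDH. After centring, 31 (19.9%) of the 156 analytes with RFI above 0 in the TAA animals and all 12 controls lay outside, 11 below (7.05%) and 20 above (12.8%), so the direction of most of these separations depended on the scale. Outside the range of all 12 methylcellulose controls there were 8 (5.06%), with 1 above, BAX, and 7 below, among them CYP3A4_2, CYP2B6_3, CYP2B6_1, CYP2C8, CDKN1B_P-S10 and CASK. After centring, 9 of 156 (5.77%) lay outside, with 6 above (3.85%) and 3 below (1.92%). The 3 below were CYP3A4_2, CYP2B6_3 and CYP2C8.

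Ratios of a modified form to its total protein within an animal do not depend on a scaling factor common to both antibodies. Whether the general shift is such a factor was not tested. Of 49 such ratios, 21 were higher and 28 lower in TAA than in control set 1, with a median difference of -0.06 on the log2 scale. Limma called 0 of the 49, and 3 (6.12%) had an unadjusted p below 0.05. The log2 ratio of CDKN1B_P-S10 to CDKN1B differed by -0.87 ± 0.29 (limma adjusted p = 0.120) and that of MAPK3_P-T202/Y204 to MAPK3 by -0.84 ± 0.39 (limma adjusted p = 0.564). The log2 ratio of MET_P-Y1349 to MET differed by 1.00 ± 0.32 (limma adjusted p = 0.120).

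**Figure D4:**
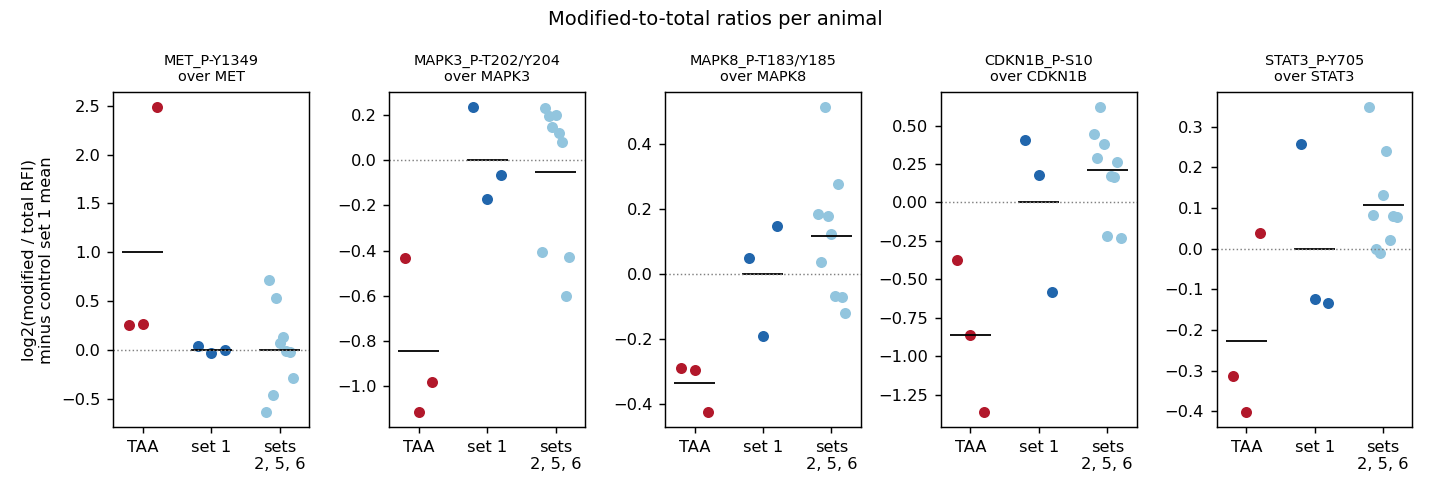
Log2 ratio of modified to total RFI in each animal, minus the mean of control set 1, for the 5 ratios with an unadjusted p below 0.05 against set 1 or against all 12 controls; bars are group means. The MET ratio is raised mainly by TAA animal 3, and the MAPK8 ratio is the only one with all TAA animals outside the 12 controls.

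The animals behind these ratios differed. For MAPK3 the log2 ratio was 0.97, 0.28 and 0.42 in TAA and 1.63, 1.22 and 1.33 in control set 1, without overlap. For MET it was -1.06, -1.06 and 1.16 in TAA against -1.29, -1.36 and -1.32, and the value of TAA animal 3 follows from its low total MET. In the deposited log2 ratios total MET of that animal was not low, at 0.02. There the MET ratio differed by 0.25 ± 0.30 between TAA and control set 1 (limma adjusted p = 0.926). The 3 TAA animals fell outside control set 1 for 9 ratios (18.4%) and outside all 12 controls for 1 (2.04%). This was the ratio of MAPK8_P-T183/Y185 to MAPK8, at -2.68, -2.69 and -2.82 against a lowest control of -2.58, with a difference of -0.34 ± 0.24 from set 1 (limma adjusted p = 0.926). Against all 12 controls 2 ratios (4.08%) were called, those of MET and CDKN1B (limma adjusted p = 0.0061 and 0.0030), the latter with both signals of uncertain name.

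TAA was also compared directly with MPy, a hepatotoxic antihistamine given for the same 7 days and referred to the same control set, at a different dose. Limma called 0 of 158 analytes between them, and 1 higher and 2 lower in TAA had an unadjusted p below 0.05 (1.90% in all). The 95% interval of a difference reached a median of 0.43 to either side on the log2 scale, so for many analytes differences of that size could be missed. The higher analyte was HIST1H4A_A-K8, at 0.593, 0.529 and 0.435 in MPy, with a difference of 0.32 ± 0.15. The lower analytes were MKI67, at 0.472, 0.483 and 0.330 in MPy, with a difference of -0.53 ± 0.26, and GLUL, whose RFI of 1.40, 0.574 and 0.497 in MPy lay above all TAA animals, of which only animal 2 entered the fit.

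TAA and MPy share their control animals, so values of analytes named for TAA are only set side by side, with the direct difference between the compounds. CYP3A4_2 was 0.599, 0.614 and 0.752 in MPy, and the difference of TAA from MPy was -0.25 with a 95% interval from -0.89 to 0.40. CYP2C8 was 1.58, 1.34 and 1.36 in MPy, with a difference of -0.22 and an interval from -1.05 to 0.61. BAX was 0.849, 0.661 and 0.969, with a difference of 0.09 and an interval from -0.25 to 0.42. MAPK3_P-T202/Y204 was 1.83, 2.21 and 1.94, with a difference of -0.09 and an interval from -0.57 to 0.40. For CYP2B6_3 the MPy animals were at 58.4, 74.6 and 27.4, with a difference of -0.71 and an interval from -1.69 to 0.27. These intervals do not show that the compounds act alike. The log2 fold changes of MPy against control set 1 were -0.98 for CYP3A4_2, -0.98 for CYP2C8 and 0.46 for BAX, and limma called 0 analytes in MPy (2 higher and 11 lower had an unadjusted p below 0.05). After centring BAX was called in MPy too, at 0.56 ± 0.14 (limma adjusted p = 0.0339). MET, given without the direct difference, was 0.480, 0.442 and 0.342 in MPy and 0.583, 0.730 and 0.607 in control set 1.

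Acetamide is the oxygen counterpart of thioacetamide, with the sulfur of the thioamide replaced by oxygen. Its dose and dosing time differed from those of TAA, so the values are only set side by side. CYP3A4_2 was 1.43, 1.11 and 2.16 in the AA animals and 0.557, 0.460 and 0.644 in the TAA animals. BAX was 0.561, 0.616 and 0.738 in AA and 0.773, 0.965 and 0.875 in TAA. CYP2C8 was 1.11, 1.85 and 2.31 in AA and 1.38, 1.24 and 1.06 in TAA. CDKN1B_P-S10 was 1.49, 2.87 and 1.94 in AA and 2.53, 1.72 and 1.23 in TAA. MAPK3_P-T202/Y204 was 1.72, 2.36 and 2.01 in AA and 2.05, 1.69 and 1.88 in TAA. CYP2B6_3 was 33.0, 70.0 and 55.9 in AA and 55.7, 23.7 and 20.6 in TAA. MET was 0.520, 0.543 and 0.561 in AA and 0.466, 0.489 and 0.0946 in TAA. GLUL was 0.136, 1.32 and 0.189 in AA, above 0 in all 3 animals.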

How the data were processed

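Frozen livers had been lysed and spotted on ZeptoMARK protein arrays. The deposited value of an analyte in an animal is an intensity (RFI) on a linear scale, for which the authors subtracted the local background from each spot, normalized across the array and took a weighted mean of replicate spots. The methods correct signals for the blank of the secondary antibody before ratios are formed and treat those below it as missing. If the deposited RFI already has that correction is not given in the sources used here, which bears on its values at or below 0. A second deposited table, the series matrix, holds log2 ratios that the authors formed against control medians, with missing entries imputed, and it served as an alternative. Its columns were shifted from log2 ratios computed here by 0.33, 0.03 and 0.27 in the 3 TAA animals. 0 matrix columns lacked a sample. Arrays have no read depth, so precision is limited by the number of animals.

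RFI at or below 0 (25 values of 5 analytes) was set to missing and the remainder log2 transformed, without scaling between animals. The fit held 21 group means over 63 animals and used lmFit and eBayes of limma 3.58.1 under R 4.3.3. P-values were two-sided and Benjamini-Hochberg adjusted over 158 analytes (49 for ratios), and analytes were called at an adjusted p below 0.05. Values after ± are standard errors (SE) of the fit unless SD is named. The fit was tested on simulated normal values without missing entries and without a general shift in TAA. That simulation does not bear on calls that rest on single animals or on missing values. Centring subtracted each animal's median over the 153 analytes above 0 in all animals.

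Exact permutation tests (Python 3.11.15) were used for analytes with RFI at or below 0. Named analytes were those called, those with an unadjusted p below 0.05, those called after centring, against all methylcellulose controls or against MPy (up to 8 each), the extremes of 19 lists, all members of the cytochrome P450, zonation and growth factor receptor lists, and GLUL, JUN, CDKN1B and CYP2C8. A few others are given with them, and some analytes are not reported here. The members and lists were chosen with earlier results of these data known. Analyte names are those deposited, and no sequence is shown because the protein sequences were not used here.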

Additional observations from a re-analysis of the deposited data

How the results depend on the processing

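The 5 calls between TAA and control set 1 depended on the animals and the scale. Leaving out each animal in turn gave 0 to 6 calls: 0 without control animal 4, 5 or 6, 1 (MET) without TAA animal 2, 2 (CYP3A4_2 and GLUL) without TAA animal 3 and 6 without TAA animal 1. Centring gave 1 call, and centring on the median of all values above 0, chosen after seeing the data, gave 2 (BAX and HIST1H4A_A-K8). All methylcellulose controls and those of sets 2, 5 and 6 gave 8 each; the same references combined with centring, chosen after seeing the data, gave 15 and 12. Setting values at or below 0 to the smallest positive value of the analyte gave 0, and the series matrix gave 1 (BAX), also when centred after seeing the data. Quantile normalization gave 4 calls, leaving out 16 dim analytes 6, trend and robust shrinkage 5, and the 6 animals alone 4. The cause of these changes was not tested. CDKN1B_P-S10 had the opposite sign in the series matrix row of that name (0.78, and 0.71 when centred), whereas the row named CDKN1B, which its RFI followed more closely, was lower (-0.82).

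The 0 called ratios became 2 with all methylcellulose controls and 2 with those of sets 2, 5 and 6 (the latter chosen after seeing the data), and ran from 0 to 2 when an animal was left out. Between TAA and MPy the series matrix called 1 analyte (AURKA), and leaving out any animal gave 0. AURKA was -0.26, 0.26 and -3.80 in the TAA columns of the matrix, so that call rests on TAA animal 3. Its RFI was 0.0657, 0.0911 and 0.0993 in the same animals, with the highest value in animal 3. With a replicate block in the 6 animals of TAA and MPy alone 2 analytes were called (ACTB higher and GLUL lower), both with missing values; nothing in the labels says that equal numbers share an animal, litter or day. For TAA and control set 1 no paired analysis was possible because they share no replicate numbers. Analytes without overlap fell from 41 to 8 against all 12 methylcellulose controls and to 9 when these were also centred, the last chosen after seeing the data.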
